A study of Mus musculus with 40 samples.

Results

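Aminergic and muscarinic receptors are membrane proteins through which cells respond to adrenaline and noradrenaline, serotonin, dopamine, histamine and acetylcholine. All of them but the Htr3 subunits couple to G proteins. Receptors of the Gs class raise cyclic AMP through adenylyl cyclase, those of the Gi class lower it, and those of the Gq class activate phospholipase C beta, whereas Htr3a and Htr3b form an ion channel gated by serotonin. In nerve tissue many of these genes are known as receptors on the endings or targets of neurons, and the beta-adrenergic receptors are also known from heart and fat. Here the family comprised every gene of the count table with the symbol of an alpha or beta adrenoceptor, or of a histamine, serotonin, dopamine or muscarinic receptor. This gave 37 of 24062 genes: 9 adrenoceptors, 4 histamine, 14 serotonin, 5 dopamine and 5 muscarinic receptors. Drd1a is the older symbol of Drd1.

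The cells were primary mouse embryonic fibroblasts (MEFs) from embryos of 13.5 days at passage 3, on a mixed C57BL/6J and 129P2OlaHsd background. Sall2, which encodes a transcription factor with zinc fingers, was WT, heterozygous (Het) or KO, and cells were either left untreated (control) or given doxorubicin at 1 µM for 16 h. Doxorubicin is an anthracycline that intercalates into DNA and traps topoisomerase II. In control there were 1 WT, 1 Het and 3 KO libraries, and with doxorubicin 1 WT, 1 Het and 2 distinct KO libraries, since the deposited doxorubicin libraries of KO embryos 2 and 3 held the same count for all 24062 genes and were used as 1. From which of these 2 embryos this library came cannot be told, and it is called KO embryo 2 below, with its control taken as that of embryo 2. WT and Het were thus each 1 library per treatment, and the spread between embryos of 1 genotype came from KO alone. The KO allele also brings 129P2 DNA around Sall2 on chromosome 14, so Sall2 and this segment cannot be told apart between genotypes.

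Totals lay between 15560728 and 24122414 counts per library, and 3 counts, taken as the floor, corresponded to between 0.124 and 0.193 CPM (counts scaled to library size) before scaling. CPM values below are relative to library sizes scaled with TMM. Sall2, counted over all its exons, stood at 37.6 CPM in WT, 24.0 CPM in Het and between 19.0 and 24.2 CPM in KO in control, so the Het library lay within the KO range. With doxorubicin it stood at 9.35, 7.94 and between 3.72 and 4.23 CPM in the same order. The Het and the third KO control libraries stood apart. Their correlation in log2 CPM was 0.982 with each other but between 0.937 and 0.946 with the other control libraries, which correlated with each other at 0.989 or above. The summed level of 12 interferon-stimulated genes was 2380 and 2600 CPM in these 2 libraries against 83.0 to 101 CPM in the other controls, and that of 12 fibroblast markers 21500 and 17400 CPM against 82600 to 99300 CPM. With doxorubicin the Het library again differed, at 1520 CPM for the interferon-stimulated genes against 367 to 457 CPM, and 9 macrophage markers summed to 727 CPM against 96.9 to 144 CPM. In bulk RNA, fewer cells of a type and less RNA per cell cannot be told apart.

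The clearest pattern in the family was the appearance of a subset of receptors in the doxorubicin libraries. Hrh3, Adra2c and Adra2b went from the floor to at least 201 counts in every treated library. Adrb3 rose by 3.88 on the log2 scale, while the receptors most abundant in control, Adra1d, Htr2a and Htr1b, did not rise.

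Since 3 receptors went from the floor to over 100 counts in every treated library, the 300 bases around their annotated start are shown here, 250 before and 50 after it, from RefSeq on GRCm38.p6. Capitals mark CpG dinucleotides, whose density separates CpG island promoters from others. The promoter of Hrh3 lies on the minus strand at chr2:180104358-180104657, that of Adra2b on the plus strand at chr2:127362929-127363228, and that of Adra2c on the plus strand at chr5:35278316-35278615.
Hrh3: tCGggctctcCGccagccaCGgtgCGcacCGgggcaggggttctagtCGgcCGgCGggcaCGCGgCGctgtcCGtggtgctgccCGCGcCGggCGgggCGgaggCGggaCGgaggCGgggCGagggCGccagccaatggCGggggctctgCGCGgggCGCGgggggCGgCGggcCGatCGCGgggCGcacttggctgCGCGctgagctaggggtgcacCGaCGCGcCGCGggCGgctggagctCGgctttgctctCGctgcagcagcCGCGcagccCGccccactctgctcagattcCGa
Adra2b: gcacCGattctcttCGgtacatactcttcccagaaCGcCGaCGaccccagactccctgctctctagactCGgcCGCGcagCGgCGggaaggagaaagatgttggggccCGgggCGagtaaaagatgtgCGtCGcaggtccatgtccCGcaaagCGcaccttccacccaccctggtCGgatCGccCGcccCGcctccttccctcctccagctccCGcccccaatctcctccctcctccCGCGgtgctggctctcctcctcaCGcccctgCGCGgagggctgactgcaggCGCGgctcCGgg
Adra2c: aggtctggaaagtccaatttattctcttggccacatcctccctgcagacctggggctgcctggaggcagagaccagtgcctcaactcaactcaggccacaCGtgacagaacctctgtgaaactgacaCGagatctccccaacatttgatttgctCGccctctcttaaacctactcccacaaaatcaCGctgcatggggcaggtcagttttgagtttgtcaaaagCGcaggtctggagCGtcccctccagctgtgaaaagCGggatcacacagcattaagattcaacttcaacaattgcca
The start of Hrh3 held 47 CpG, more than 98.6% of the 32851 mouse promoters in the same set, whose median was 7. Adra2b held 29, more than 87.1% of them, and Adra2c only 7, more than 47.9%. The 3 genes thus did not share a CpG density in these windows. GENCODE starts Adra2c at chr5:35278319, so nearly all of its window lies within the exon annotated there, and the bases before that start were not examined.

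In the control libraries Hrh3 had 0 counts in all 5. With doxorubicin the WT library held 387 counts, Het 446, and KO embryos 1 and 2 held 347 and 446, or 20.2 ± 1.12 CPM (SD, n = 4). Hrh3 encodes the histamine H3 receptor, a Gi-coupled receptor known as an inhibitory autoreceptor on neurons. All 4 treated libraries lay within a narrow range and far from the controls. Against the floor of 3 counts per library the mean was at least 138-fold higher (edgeR quasi-likelihood test, FDR 6.36e-05), and the lowest library 132-fold. Adra2c, the alpha-2C adrenoceptor and also Gi-coupled, likewise had 0 counts in all 5 controls. Treated WT held 355 counts, Het 214, and the KO libraries 389 and 376, or 16.7 ± 4.68 CPM (SD, n = 4). The mean was at least 115-fold higher than the floor (FDR 8.11e-05), and the lowest library 71.1-fold. The Het library was the lowest of these.

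Adra2b, the alpha-2B adrenoceptor, had 0, 1, 3, 1 and 0 counts in the WT, Het and 3 KO control libraries. Treated WT held 278 counts, Het 201, and the KO libraries 226 and 342, a ratio of 271 with a 95% counting interval from 116 to 835 (FDR 2.01e-05). Adra2a, the remaining member of this subclass, was expressed in control, at 10.3 CPM in WT, 9.05 in Het and 14.7, 10.3 and 5.25 CPM in KO. With doxorubicin it measured 16.1, 12.9, 18.1 and 15.0 CPM in WT, Het and KO embryos 1 and 2. Its groups overlapped and it did not pass the threshold, with a log2 fold change of 0.65 (SE 0.28, FDR 0.0766), though it did with RUVg, a fit with an estimated factor of unwanted variation (FDR 0.000612). The alpha-2 receptors hence started from different control levels. Per kb of exon, their treated means were 3.21 CPM for Adra2a, 3.23 for Adra2b and 4.86 for Adra2c.

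Such a start from 0 was rare in the transcriptome. Of all genes, 5241 had 0 counts in every control library, and 7 of these reached at least 100 counts in every treated library, 2 of which were Hrh3 and Adra2c. Of the 7768 genes at the floor in every control library, 43 did so, 3 of them receptors of this family with Adra2b included. No test was made of these counts, as the family was chosen with results of these data known.

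**Figure D1:**
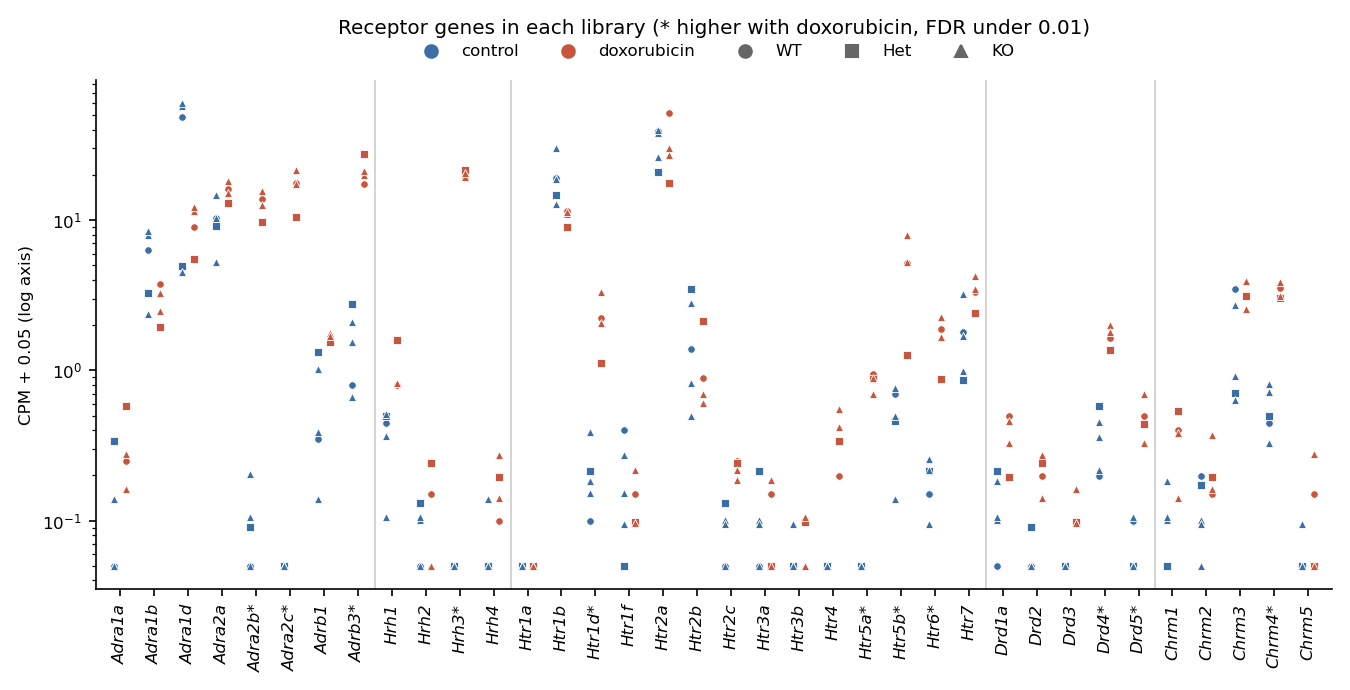
Level of 36 receptor genes in the 9 distinct libraries, as CPM + 0.05 on a log axis, by treatment (colour) and genotype (symbol). Hrh3 and Adra2c sat at 0 in all 5 controls and at 10.4 to 21.6 CPM in the treated libraries, and Adra1d was split among the controls between 4.44 and 59.8 CPM.

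Doxorubicin was compared with control over all 9 libraries with genotype as a term, by the quasi-likelihood test of edgeR at an FDR under 0.01. Of the 37 receptors, 24 had enough counts to be tested. Among these 12 were higher and 0 lower, and 20 had an unadjusted p under 0.05 in either direction, as had 60.6% of all genes tested. Over all 16656 genes tested, 21.9% were higher and 18.7% lower. In simulated data this fit recovered 0 of 92 changes of 2-fold and 54 of 93 changes of 4-fold. Receptors that did not pass hence cannot be taken as unchanged. The median log2 fold change was 2.44 over the 24 receptors, with Hrh3, Adra2c and Htr5a set at their lower bound, and 0.016 over all genes. The receptor median includes 9 genes that entered the test only through their treated libraries, which favours a high value. DESeq2 gave 13 receptors, all higher, with Htr7 as the addition, and called 27.1% of all genes higher.

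These counts have to be read against how genes entered the test. Of the 24 receptors, 9 had under 10 counts in every control library and could be tested only because of their treated libraries, which favours a higher call. They hold 7 of the 12 higher ones, and among all genes of this kind 68.7% were higher. Among the 15 receptors with at least 10 counts in some control library, 5 were higher, among them Adrb3, Chrm4, Drd4 and Htr5b, beside 16.5% of all such genes, and none was lower, beside 20.9%. The groups did not overlap for any of the 12, and 14 of the 24 tested receptors lay above all controls in every treated library, which 24.8% of all tested genes did. The 14 include receptors tested only because of their treated libraries, which favours this share as well. Only Htr1b lay below all controls, as 21.6% of all tested genes did.

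**Figure D2:**
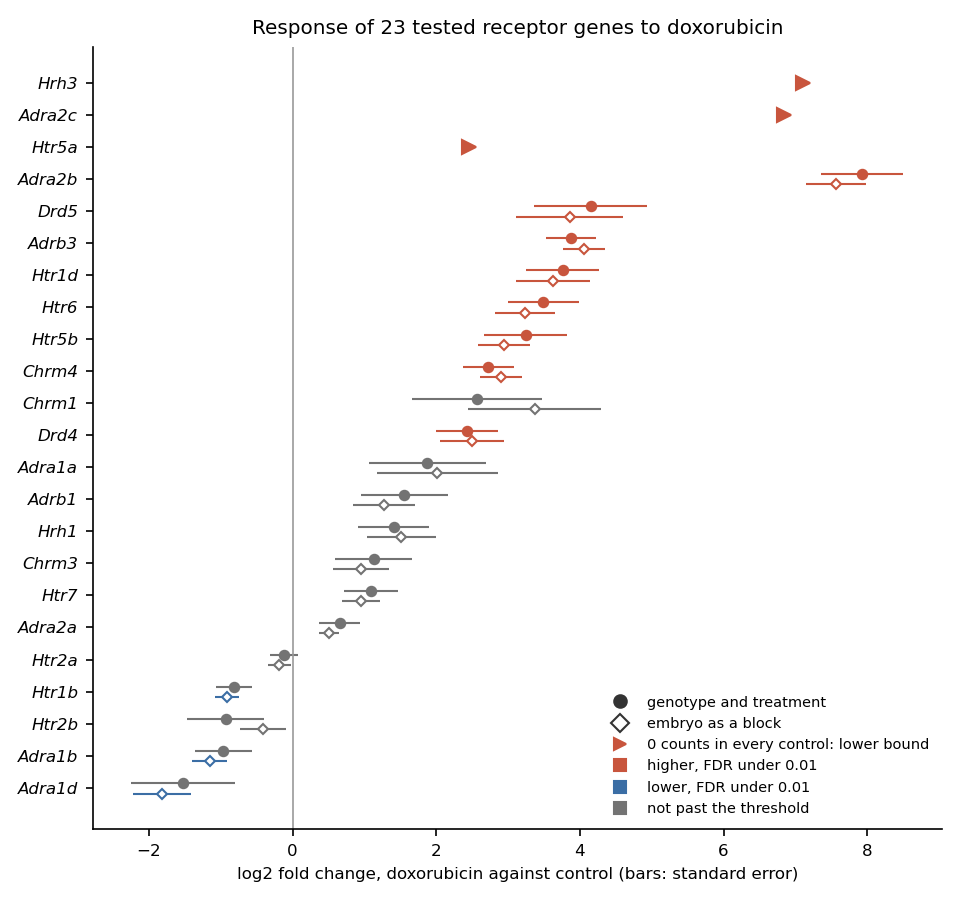
Log2 fold change of 23 tested receptors with doxorubicin, with standard errors, from the fit with genotype and treatment (circles) and with the embryo as a block (diamonds). The receptors called higher stood at 2.43 or above, apart from the lower bounds drawn as triangles, and 3 receptors were called lower with the block alone.

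Of the beta-adrenergic receptors, which couple to Gs, Adrb3, known for its role in fat breakdown in adipocytes, had 0.747 CPM in WT, 2.70 in Het and 1.49, 0.618 and 2.06 CPM in KO in control. With doxorubicin it rose to 17.3, 27.6, 20.1 and 21.1 CPM in WT, Het and KO embryos 1 and 2, a log2 fold change of 3.88 (SE 0.35, FDR 5.13e-05). The Het library was the highest of the treated ones here. Adrb1, the main beta receptor of the heart, ranged from 2 to 31 counts in control and from 30 to 36 counts with doxorubicin and did not pass, with a log2 fold change of 1.56 (SE 0.60, FDR 0.0543), though it did with RUVg (FDR 0.00902).

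The alpha-1 receptors, which couple to Gq, were not among the higher genes. Adra1d was at 48.5 CPM in WT and 57.3 and 59.8 CPM in KO embryos 1 and 2, but at 4.87 CPM in Het and 4.44 CPM in the third KO library. With doxorubicin the values were 8.95, 5.43, 11.4 and 12.3 CPM in WT, Het and KO embryos 1 and 2. The controls thus split into a high and a low set, and the low set was the pair of libraries that stood apart in interferon-stimulated and fibroblast genes. Their part in the level of Adra1d was not tested. Over all libraries the log2 fold change was -1.53 (SE 0.72, FDR 0.102), within Het the log2 ratio of treated to control was 0.15, and in the other 3 embryos it lay between -2.43 and -2.28. Set against the control of embryo 3 instead, the shared KO library gave 1.45.

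Adra1b varied in the same way, from 2.33 to 8.48 CPM in control with the 2 lowest values in Het and the third KO library, and from 1.89 to 3.73 CPM with doxorubicin. It was lower in 4 of 4 embryos, but against the control of embryo 3 the log2 ratio of the shared KO library was 0.058. Adra1a was at or near the floor, with at most 7 counts in control and 11 with doxorubicin, and did not pass (log2 fold change 1.88, SE 0.81, FDR 0.0786).

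Here the pairing of libraries mattered. With the embryo as a block, 30% of all genes were called higher and 26.9% lower. The same fit called 15 receptors, the same 12 higher ones and 3 lower ones, Adra1d (log2 fold change -1.82, SE 0.40, FDR 0.00378), Adra1b (-1.16, SE 0.24, FDR 0.00269) and Htr1b (-0.91, SE 0.17, FDR 0.00149). These 3 were also called lower when the third KO control library was left out (FDR 0.00144, 0.00129 and 0.00108), where 31.4% of all genes were higher and 27.5% lower, and when both Het libraries and the third KO control library were left out, a choice made after seeing the data, where 35.1% of all genes were higher and 31.4% lower. In that fit 13 receptors were higher, Adrb1 in addition to the 12 (log2 fold change 1.59, SE 0.41, FDR 0.00501). The lower calls depended on which embryo the shared KO library was given to. With this library paired with the control of embryo 3, also a choice made after seeing the data, 13 receptors were called, the same 12 and Htr7, all higher, and Adra1d, Adra1b and Htr1b did not pass (FDR 0.289, 0.0878 and 0.0249).

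Of the 8 serotonin receptors tested 4 rose, each of which was under 1 CPM in every control library, and 3 of these 4, Htr1d, Htr5a and Htr6, were among the genes under 10 counts in every control, of which 68.7% were higher. Htr1d, Gi-coupled and known as a target of antimigraine drugs, had 1 count in WT, 4 in Het and 2, 6 and 3 counts in KO in control. It had 44, 22, 59 and 44 counts with doxorubicin in WT, Het and KO embryos 1 and 2, a log2 fold change of 3.76 (SE 0.51, FDR 0.000367). Every treated library lay above every control, with Het the lowest.

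Htr6, which couples to Gs, had 2, 4, 4, 3 and 1 counts in the WT, Het and 3 KO control libraries. With doxorubicin it had 37, 17, 40 and 35 counts, a log2 fold change of 3.49 (SE 0.49, FDR 0.000449). The Het library was again the lowest of the treated ones.

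The Htr5 pair rose as well. Htr5a had 0 counts in all 5 controls and 18, 17, 15 and 14 counts with doxorubicin in WT, Het and KO embryos 1 and 2. The mean was at least 5.48-fold higher than the floor (FDR 0.00187), and the lowest library 4.41-fold. Htr5b, which is functional in rodents but not in humans, had 13, 10, 14, 8 and 2 counts in the WT, Het and 3 KO controls. With doxorubicin, WT held 104 counts and the KO libraries 142 and 113, but Het 25, a log2 fold change of 3.24 (SE 0.58, FDR 0.00158). For Htr5b, the Het library reached less than any other treated library while still above all controls. Htr5a was no longer called when either KO doxorubicin library was left out (FDR 0.0143 and 0.0144).

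Htr1b and Htr2a were, beside Adra1d, the receptors with the highest control levels per kb. Htr1b, Gi-coupled, measured 19.1 CPM in WT, 14.7 in Het and 30.4, 18.9 and 12.7 CPM in KO. It was at 11.4, 9.01, 11.0 and 11.3 CPM in WT, Het and KO embryos 1 and 2 with doxorubicin. The groups did not overlap, so it was lower in 4 of 4 embryos under any pairing, also with the control of embryo 3. In the fit without the block this did not reach the threshold (log2 fold change -0.82, SE 0.25, FDR 0.0234). Its exons overlap D430036J16Rik on the other strand.

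Htr2a, a Gq-coupled receptor and the site of action of serotonergic psychedelics, measured 39.3 CPM in WT, 20.9 in Het and 38.1, 40.1 and 26.4 CPM in KO in control. With doxorubicin it measured 51.4 CPM in WT, 17.7 in Het, and 27.1 and 30.2 CPM in KO. The groups overlapped, WT being higher and the other 3 embryos lower with doxorubicin, with a log2 fold change of -0.12 (SE 0.19, FDR 0.612), whose sign upper-quartile scaling turned (0.076, with all genes shifted by 0.19). Htr2b ranged from 0.449 to 3.44 CPM in control and from 0.556 to 2.08 CPM with doxorubicin and did not pass (log2 fold change -0.93, SE 0.54, FDR 0.17) except as lower with RUVg (FDR 0.00253), and its exons overlap Psmd1 on the other strand. Htr7, Gs-coupled, ranged from 0.819 to 3.20 CPM in control and from 2.37 to 4.22 CPM with doxorubicin and did not pass (log2 fold change 1.09, SE 0.38, FDR 0.0357). It passed with DESeq2 (FDR 0.00904), with RUVg (FDR 0.000767), with the shared KO library paired with embryo 3 (FDR 0.00917) and without the control library of KO embryo 2 (FDR 0.00929).

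Both dopamine receptors that could be tested rose, beside 21.9% of all genes, and Drd5 was tested only because of its treated libraries. Drd4, a D2-like receptor, had 3, 13, 6, 3 and 9 counts in the WT, Het and 3 KO controls. It had 32, 27, 35 and 38 counts with doxorubicin in WT, Het and KO embryos 1 and 2, a log2 fold change of 2.43 (SE 0.43, FDR 0.00147). Drd5, a D1-like receptor, had 1, 0, 0, 1 and 0 counts in the controls. It had 9, 8, 5 and 14 counts with doxorubicin, a ratio of 23.3 with a 95% counting interval from 5.99 to 199 (FDR 0.00212). These few reads carry the call, which was lost without the Het control library, the Het doxorubicin library or the doxorubicin library of KO embryo 2 (FDR 0.01, 0.0106 and 0.015).

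Of the muscarinic receptors, Chrm4, which couples to Gi, had 8, 11, 13, 5 and 17 counts in the WT, Het and 3 KO controls. It had 70, 62, 69 and 67 counts with doxorubicin in WT, Het and KO embryos 1 and 2, a log2 fold change of 2.72 (SE 0.36, FDR 0.000304), and the treated libraries were nearly level. Chrm1 had at most 3 counts in control and between 2 and 10 counts with doxorubicin, a ratio of 6.46 with a 95% counting interval from 2.43 to 21.6, and did not pass (FDR 0.0388) unless the third KO control library was left out (FDR 0.00687). Chrm3 ranged from 13 to 69 counts in control and from 45 to 85 counts with doxorubicin (log2 fold change 1.13, SE 0.53, FDR 0.104), and passed with RUVg alone (FDR 0.00451). Hrh1, the Gq-coupled histamine receptor blocked by antihistamines, ranged from 1 to 11 counts in control and from 14 to 32 counts with doxorubicin, without overlap, and did not pass (log2 fold change 1.41, SE 0.49, FDR 0.0371).

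The 13 receptors with too few counts to be tested in the main fit add little. Htr1a was at 0 in every library, and Drd3 and Htr3b were at or under the floor in every library. Htr4 had 0 counts in all 5 controls and 3, 6, 9 and 8 counts with doxorubicin. Drd2 had 1 count in all controls together and between 2 and 4 counts in each treated library, a ratio of 16.8 with a counting interval from 2.52 to 714. Htr2c had at most 2 counts in control and 3 or 4 in each treated library, and Hrh4 at most 2 against 1 to 4. Drd1a ranged from 0 to 4 counts in control and from 3 to 9 with doxorubicin, Chrm2 from 0 to 3 and from 2 to 7, Chrm5 from 0 to 1 and from 0 to 5, Hrh2 from 0 to 2 and from 0 to 4, Htr3a from 0 to 4 and from 0 to 3, and Htr1f from 0 to 7 and from 1 to 3. No difference was tested for them at this depth. Counting intervals and floors describe sampling of reads and no other error, because PCR copies cannot be recognised without molecular identifiers.

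**Figure D3:**
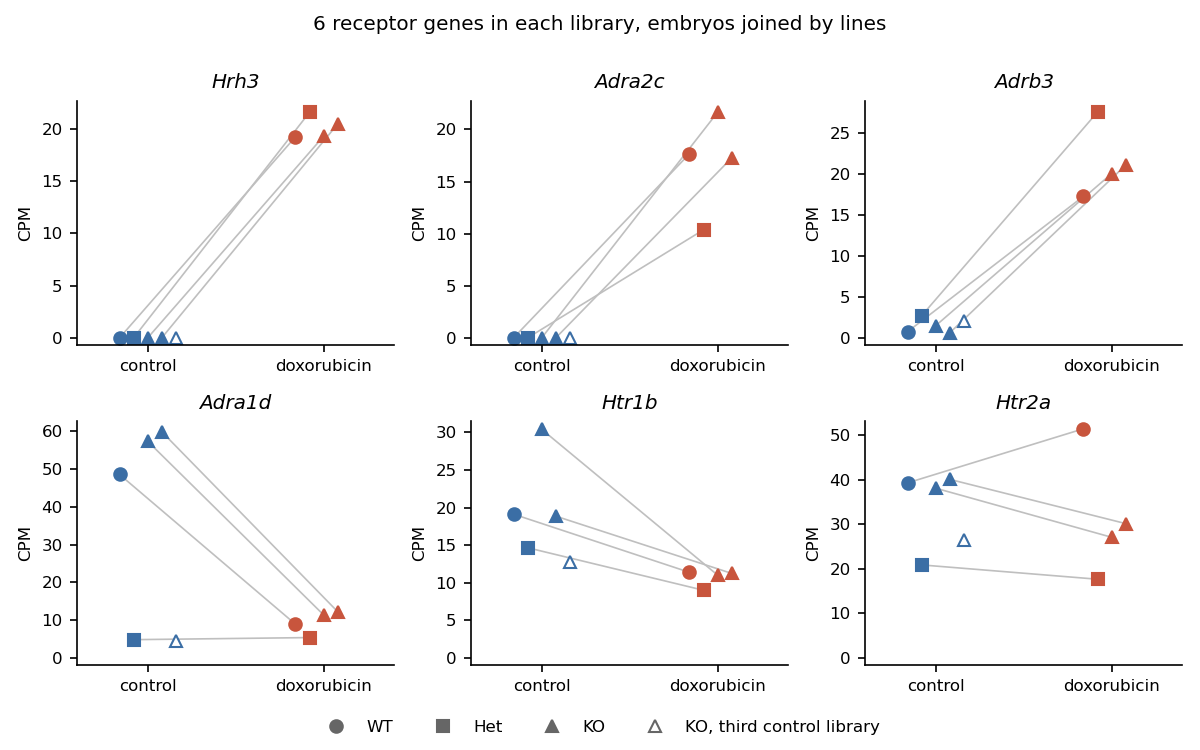
Level in CPM of 6 receptor genes in each library, with lines joining the control and doxorubicin libraries of an embryo. The Het library and the third KO control library sat at 4.87 and 4.44 CPM for Adra1d, below the 48.5 CPM or more of the other controls, and WT was the 1 embryo with a higher value of Htr2a after doxorubicin.

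Between 13 and 20 of the 37 family members exceeded 3 counts in a control library and between 26 and 28 in a treated one. The summed level of the 36 receptors plotted lay between 60.1 and 157 CPM in control and between 138 and 187 CPM with doxorubicin. The groups thus overlapped for these 36, but over all 37 members every treated library had a higher sum than every control library. In the serotonin receptors the sums overlapped, at 40.8 to 72.2 and 35.7 to 77.6 CPM. Over all genes, too, more were detected with doxorubicin, at 18766 to 19393 genes with a count against 16167 to 17839. Compared per kb of exon, the order in control was Adra1d, Htr2a, Htr1b and Adra2a, at 18.4, 5.88, 4.05 and 2.05 CPM per kb. With doxorubicin Hrh3, Adrb3 and Htr2a stood at 6.41, 6.38 and 5.64 CPM per kb. Hrh3 and Adrb3 did not differ beyond the spread between libraries.

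Grouped by the G protein they are known to couple to, a grouping made after the values were seen and not tested, the counts called were as follows, beside 21.9% of all genes higher. In the Gi class 7 of 9 tested members were higher, Adra2b, Adra2c, Hrh3, Htr1d, Htr5a, Drd4 and Chrm4, and in the Gs class 4 of 6, among them Adrb3, Htr6 and Drd5. Of these, 5 in the Gi class and 2 in the Gs class had under 10 counts in every control library, where 68.7% of all genes were higher. Of the Gq class 0 of 8 tested members were higher. With the embryo block, 2 of the Gq class were lower, Adra1b and Adra1d, and 1 of the Gi class, Htr1b. That fit called 26.9% of all genes lower, and these lower calls were lost with the shared KO library paired with embryo 3. Htr5b was not assigned to a class. The median genomic span of the tested members differed as well, at 4.83 kb in the Gi, 12.7 kb in the Gs and 77.0 kb in the Gq class, and the part of span in the counts by class was not tested.

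The genomic span was set beside the response, as a description. Across the 24 tested receptors, which are not independent replicates, Spearman's rho between span and log2 fold change was -0.48, or -0.482 with the 3 genes at 0 in control set at their bound, and over 16511 genes with a span it was -0.128. For the 15 receptors with at least 10 counts in some control library it was -0.332, and for 14816 genes of this kind -0.0804. The difference between the family and all genes was not tested. The longest receptor called higher spanned 24.8 kb. With all tested genes split by span into 4 groups of equal size, the share called higher was 27.4%, 23.0%, 19.7% and 17.3% from the shortest to the longest, and the share called lower 11.0%, 17.8%, 22.6% and 23.8%. The receptors called higher numbered 7 of 9, 4 of 8, 1 of 1 and 0 of 6 in these groups. Whether the coding sequence lay in a single exon, as in many receptors of this family, left the count the same, with 6 of 12 tested receptors higher both for a single coding exon and for several. Spans come from GENCODE on GRCm38, and that of Chrm4 (chr2:91927249-91928688) leaves out the RefSeq start upstream of it (promoter at chr2:91921939-91922238).

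**Figure D4:**
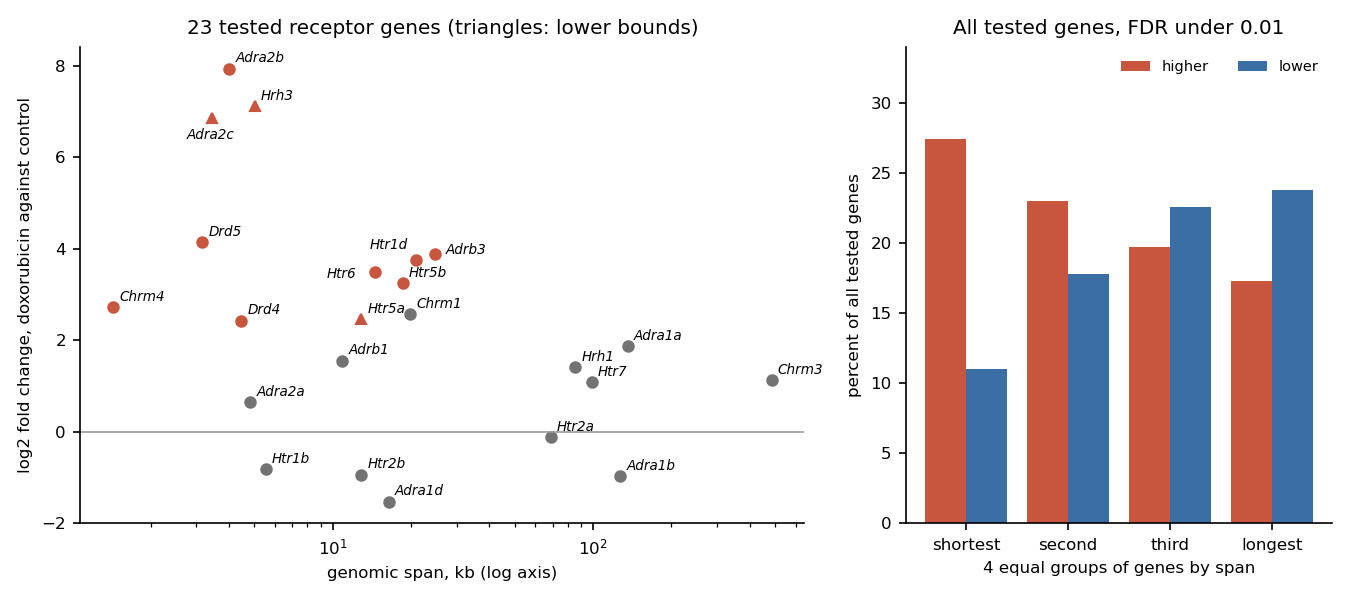
Genomic span against log2 fold change with doxorubicin for 23 tested receptors (left, red for those called higher), and the percent of all tested genes called higher or lower in 4 groups of equal size by span (right). The higher receptors lay at or under 24.8 kb, and the share of all genes called higher declined from 27.4% to 17.3%.

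Promoters could be matched for 28 of the 37 receptors, 36 promoters in all, and 9 of these 28 were called higher. Of the motifs searched on both strands, GGGCGG, the letters of a GC box, was in 22 of the 36 and in 35.7% of all promoters. TGACGTCA, the cyclic AMP response element, was in 0 of them, against 1.79% of all. CACGTG was in 2, those of Adra2a and Adra2c, against 7.15%, TGANTCA in 4 against 7.81%, and TATAAA in 1 against 13.6%. Among the 9 higher receptors with a promoter, Adra2b, Chrm4, Drd4, Drd5, Hrh3, Htr1d and Htr6 had a GGGCGG in at least 1 promoter, while Htr5a (14 CpG) and Adra2c had none. A match is a description of these letters and not of a bound site.

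Since reads could also come from a neighbour, the nearest upstream gene on the same strand was examined for the 12 higher receptors. These neighbours were higher in 4 cases, lower in 3, past no threshold in 4 and untested in 1, and 3 lay closer than 10 kb. Astl, 5.56 kb upstream of Adra2b, had 0 counts in every control library and at most 129 counts with doxorubicin. Otop1, 15.2 kb upstream of Drd5, went from at most 1 count to at most 132, and Nbl1, 6.71 kb upstream of Htr6, from 103 to 206 CPM. For Hrh3 the neighbour Lama5 was 71.9 kb away and stood at 204 and 184 CPM. Ambra1, 8.40 kb upstream of Chrm4, was lower, at 42.3 CPM in control and 18.6 CPM with doxorubicin. On the other strand, Gm17180 overlaps exons of Hrh3, Gm45470 of Adrb3, Gm26560 of Drd5 and Gm14285 of Adra1d. None of these 4 was in the count table, and as the strand setting of the counting was not stated, reads from them and from the receptors cannot be told apart.

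The genotypes were then compared. Over both treatments, 0 of the 24 tested receptors differed between KO and WT at an FDR under 0.01, and 0% of all genes did (edgeR; 115 genes and 0 receptors with an unadjusted p under 0.05, 3 genes by DESeq2). Between Het and WT 0 receptors differed and 0% of all genes (edgeR; 3925 genes and 2 receptors, Htr2a and Adrb3, with an unadjusted p under 0.05, 176 genes and 0 receptors by DESeq2). Htr2a was lower in Het by this fit, with a log2 fold change of -1.25 (SE 0.28, FDR 0.2), and it passed when the third KO control library was left out, the 1 receptor to do so (log2 fold change -1.25, SE 0.22, FDR 0.00237), in a fit that called 19.7% of all genes. In control alone, 0 of the 14 receptors tested differed between 1 WT and 3 KO libraries and 0% of all genes (edgeR; 10 genes and 0 receptors with an unadjusted p under 0.05, 0 genes by DESeq2).

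With doxorubicin, 1 WT and 2 KO libraries gave 22 tested receptors, of which 0 were higher in KO and 1, Htr2a, lower. Of all 15256 genes tested, 0.118% were higher and 0.0787% lower. Htr2a stood at 51.4 CPM in WT and at 27.1 and 30.2 CPM in KO, a log2 fold change of -0.85 (SE 0.20, FDR 0.00765). The spread in this fit came from the 2 KO libraries alone, and the call was lost by DESeq2 (FDR 1), when genes needed 5 counts in 2 or more libraries (FDR 0.564) and with every gene that had a count (FDR 0.0133). The Het library, at 17.7 CPM, was below both KO libraries, and the Het libraries stood apart in other genes too. Htr2a lies on chromosome 14, as Sall2 does, 22.3 Mb from it, at chr14:74640840-74709494. Adra1a, the other receptor gene on this chromosome, lies 14.3 Mb from Sall2. Whether either lies in the 129P2 segment was not examined here.

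For the response to doxorubicin in KO against that in WT, tested as an interaction, 0 receptors passed and 0% of all genes (edgeR; 58 genes and 0 receptors with an unadjusted p under 0.05, 0 genes by DESeq2). In simulated data, 0 of 100 changes of 4-fold were recovered for this interaction, and 0 of 95 for KO against WT in control. The 0 calls in these 2 comparisons hence cannot show that the genotypes did not differ. For KO against WT in control, RUVg did call some of all genes, though no receptor. The paper, which used RUVSeq and edgeRun, also reports genes that differ between WT and KO. The 12 higher receptors were higher in 4 of 4 embryos in log2 ratio, also with the control of embryo 3 for the shared KO library. As the groups did not overlap for any of them, this followed under any pairing and adds no further evidence. For Hrh3 the ratio lay between 7.63 and 7.80 in the 4 embryos with a prior count of 2, and for Drd4 between 1.16 and 2.79. Among the treated libraries, Het was the lowest for 8 of the 12 receptors and KO embryo 1 the highest for 7. The same order over all genes is not given here. Over all tested genes the treated Het library correlated at 0.939 to 0.947 with the other treated libraries, which correlated at 0.988 to 0.991 with each other. With 1 Het library, a trait of genotype and a trait of that library cannot be told apart. In the KO libraries alone, 7 receptors were higher, where 8.06% of all genes were, and Chrm4, Drd4, Drd5, Htr5a and Htr5b were no longer called.

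The genes around the receptors were taken from lists of signalling and cell type genes, chosen with results of these data known. The counts called in the next 3 lists stand beside 21.9% of all genes higher and 18.7% lower. Of 13 G protein alpha subunits, 4 were higher and 2 lower with doxorubicin. Gnal, a Gs-like subunit known from olfactory neurons and striatum, went from between 71 and 120 counts to between 533 and 938 (log2 fold change 2.96, SE 0.18, FDR 9.44e-06). Gnai1 was higher and Gnai3 and Gnaq, which serve Gi and Gq receptors, were lower, with log2 fold changes of 1.36, -1.13 and -1.16. Of 14 adenylyl cyclases and phospholipases C beta, 5 were higher and 3 lower, with Adcy5 from 5.57 to 44.7 CPM and Adcy8 from 0.858 to 8.17 CPM in the group means. Of the 9 tested receptor kinases and arrestins, Sag was higher and Arrb1 and Grk6 lower, Arrb1 with a log2 fold change of -1.65 (SE 0.19, FDR 0.000179).

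Some of the genes that make, move and break down the ligands were called. Of 7 tested transporters 5 were higher and 0 lower, beside 21.9% and 18.7% of all genes, and 3 of the 5 had under 10 counts in every control, where 68.7% of all genes were higher. Slc18a3, the vesicular acetylcholine transporter, had at most 1 count in a control library and between 467 and 609 with doxorubicin, Slc6a4, the serotonin transporter, at most 4 and between 121 and 354, and Slc18a1, a vesicular monoamine transporter, at most 12 and between 157 and 225. Of 7 tested enzymes of synthesis, 3 were higher, Chat, Hdc and Dbh, and 0 lower, while DESeq2 called 2. Chat and Hdc had under 10 counts in every control, where 68.7% of all genes were higher. The groups overlapped for Dbh, at 1 to 10 counts in control and 4 to 34 with doxorubicin (edgeR FDR 0.00901). Chat, choline acetyltransferase, had 0 counts in every control library and between 12 and 73 with doxorubicin, and Hdc, which makes histamine, at most 5 and between 29 and 59. Slc18a3 is nested in an intron of Chat on the same strand. Of 7 tested enzymes of breakdown 1 was higher, Maoa (58.5 to 137 CPM), and 1 lower.

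Markers of cells in which these receptors are best known moved unevenly, and their counts stand beside 21.9% of all genes higher and 18.7% lower. Of 12 neuron markers, Rbfox3, Nefm and Elavl3 were higher and Map2 lower, while 8 did not pass. Rbfox3 and Elavl3 had under 10 counts in every control, where 68.7% of all genes were higher. The summed level of the 12 lay between 91.7 and 143 CPM in control and between 110 and 127 CPM with doxorubicin. Of 10 glia and neural crest markers 2 were higher, Foxd3 and Erbb3, and 1 lower, Sox10. Of the 9 macrophage markers Cd68 was higher and Csf1r lower, and of 7 tested endothelial markers Cldn5, Emcn and Vwf were higher. Smooth muscle markers, heart muscle markers and interferon-stimulated genes gave 0 calls of 7, 8 and 12 with edgeR and 0 with DESeq2, and 1, 1 and 0 of them had an unadjusted p under 0.05. Of the mast cell markers Kit was higher (0.655 to 7.81 CPM), and Tpsb2 was at 0 everywhere. Pdgfrb was the 1 fibroblast marker of 12 called with edgeR, from 432 to 57.4 CPM. DESeq2 called 2, and 3 had an unadjusted p under 0.05 with edgeR, while S100a4, at 199 and 345 CPM, fell short of the threshold (edgeR FDR 0.0108). The part of these cell types in the receptor values was not tested.

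**Figure D5:**
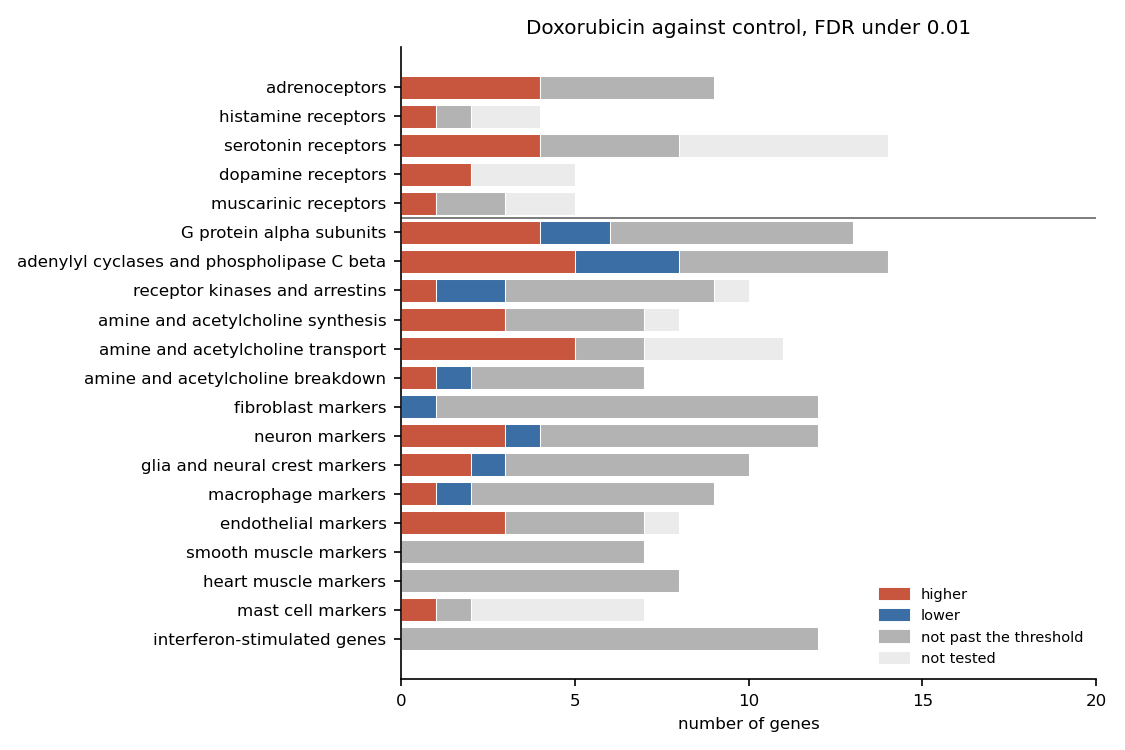
Number of genes called higher, called lower, not past the threshold or not tested with doxorubicin, for the 5 receptor groups and 15 lists of related and cell type genes. Transporters were higher in 5 of 7 tested genes with 0 lower, and adrenoceptors in 4 of 9 tested genes, beside 21.9% of all genes higher and 18.7% lower.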

How the data were processed

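RNA-Seq libraries were made from rRNA-depleted RNA with a stranded kit, and 4 FASTQ files per library were merged by the authors. Per the study's methods, reads were aligned to mm10 with HISAT2 (2.1.0 in the submitters' processing notes) and assigned to iGenomes genes by HTSeq in its union mode. The deposited values are whole counts for 24062 genes in 10 libraries, without normalization. The strand setting is not given in the sources used here.

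Libraries were grouped by their labels. Counts were fitted in R 4.3.3 with edgeR 4.0.16 (TMM, filterByExpr, glmQLFit and glmQLFTest, two-sided, Benjamini-Hochberg over all genes tested, FDR under 0.01), with limma 3.58.1 and DESeq2 1.42.0 as helper and alternative, and tested on simulated data. Genes named are receptors called in a comparison, Hrh3, Adra2c and Htr2a, and the 8 receptors with the highest CPM per kb of exon, with values in every library, and ranges for the rest. The receptors and lists were chosen with earlier results of these data known. Alternatives were another tool, scaling, filter or FDR, RUVg, KO alone, each library left out and the embryo as a block, the last also with the KO doxorubicin library deposited under 2 numbers paired with embryo 3. The block takes libraries with the same number in their titles as 1 embryo. As a check, deviations from group means correlated at 0.475, 0.727, 0.57 and 0.481 within WT, Het and KO embryos 1 and 2 across 16656 genes, each highest with its own number. Over all 5 controls the deviations of the shared KO doxorubicin library correlated at 0.498 with the control of embryo 2 and at -0.391 with that of embryo 3. Replicates of WT and Het are 1 per treatment. P-values measure the spread between these libraries. Of the genes counted, 2 are not reported individually here, in the text or in the plots of single genes. They stay in all counts and tests, and in all sums but that of the 36 receptors plotted. Figures were drawn with Matplotlib 3.10.9.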

Additional observations from a re-analysis of the deposited data

Results flagged for a closer look

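For 2 receptors the WT embryo lay on one side of 0 in its log2 ratio and both KO embryos on the other, and the interaction was not called. For Chrm3, the log2 ratio of doxorubicin to control was -0.13 in WT and 1.42 and 0.52 in KO embryos 1 and 2, a difference of 1.1 between the KO mean and WT, and the interaction was 1.35 (SE 1.33, edgeR FDR 1). For Htr2a, the log2 ratio was 0.39 in WT and -0.49 and -0.41 in KO embryos 1 and 2, a difference of -0.837, and the interaction was -0.67 (SE 0.47, edgeR FDR 1). With the control of embryo 3 in place of that of embryo 2, the second KO ratio was 2.56 for Chrm3 and 0.19 for Htr2a, where KO then lay on both sides of 0. The Het embryo stood at 2.09 for Chrm3 and at -0.24 for Htr2a. No group of the design held 4 or more libraries, so no library was tested for lying outside its group.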

How the results depend on the processing

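Of the comparisons, the count of receptors called with doxorubicin moved by more than 1.5 times in the KO libraries alone, to 7 from 12, and lay between 10 and 16 with 1 library left out at a time. It was 8 at an FDR under 0.001, 16 under 0.05, 17 with RUVg and between 12 and 15 with the other tools, scalings, filters and the replicate block. The share of all genes called moved along, from 40.6% to 20.6%, 55.6% and 61.6% in the first 3 of these and to 12.8% in KO alone. Without the third KO control library 16 receptors were called, 13 higher and 3 lower, and 58.9% of all genes. The replicate block gave 15 and 57.0%, but 13 and 38.6% with the shared KO doxorubicin library paired with embryo 3. For Het against WT the count lay between 0 and 1 with a library left out, the 1 being Htr2a without the third KO control library, where 19.7% of all genes were called. In KO against WT with doxorubicin, the 1 call of Htr2a became 0 at an FDR under 0.001, with DESeq2 and with both other filters, and leaving out a library was not possible there, nor was leaving out WT in any fit of 1 treatment. The remaining counts stayed at 0, also with the replicate block for the interaction. Upper-quartile scaling moved the median log2 fold change of all genes by 0.189 (log2) and turned the fold change of Htr2a with doxorubicin to 0.076, and the calls over all genes from 3645 higher and 3115 lower to 4223 and 2424. The cause was not tested in these cases. Depth limits the 13 receptors that could not be tested in the main fit, and with 1 WT library per treatment the spread within WT is not known.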
